A study of Mus musculus with 16 samples.

Results

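Myc and 36 genes that build ribosomes were examined in mouse Th17 cells, helper T cells that secrete IL-17. The 37 genes were given as a list of names, by a rule that uses no measured value. All 37 were among the 15571 genes of the deposited count table, and all 37 passed the filter on low counts that left 14985 genes for testing. The lowest count of any of them in any library was 1366. Naive CD4+ T cells, isolated with magnetic beads from lymph nodes and spleen, were driven to the Th17 fate for 3 days with plate-bound anti-CD3 (5 µg/mL), anti-CD28 (1 µg/mL), IL-6 (30 ng/mL), TGFβ (2 ng/mL) and an antibody blocking IFNγ (5 µg/mL). Every mouse carried loxP-flanked PDH alleles. PDH is the pyruvate dehydrogenase complex, which turns pyruvate into acetyl-CoA in mitochondria. WT cells carried no Cre, and KO cells carried CD4-Cre, which deletes in cells that have passed through the CD4-expressing stage in the thymus. Cells of both genotypes were cultured without addition (untreated) or with 10 mM sodium acetate, from which cells can make acetyl-CoA by another route. Each of the 4 groups had 4 libraries. The sample titles spell the allele PHD where the protocols spell it PDH, and which gene of the complex was floxed is not given in the sources used here. No group controlled for sodium or for Cre alone. Whether the 4 libraries of a group are separate animals or cultures is not in the labels. The p-values therefore measure only how far these libraries spread, which may be technical.

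Myc is a transcription factor that binds DNA as a dimer with Max and is induced when T cells are activated. Its best known targets include the genes for ribosome assembly. A ribosome starts in the nucleolus, where RNA polymerase I makes a long precursor RNA. Small nucleolar RNAs, held in box C/D and box H/ACA particles, guide its methylation and pseudouridylation, and assembly factors cut and fold it into the small and large subunits. The members cover these steps, and they are described below in that order.

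Library totals lay between 24.57 and 33.72 M counts. Levels are given as CPM, the count relative to a library's TMM-scaled size, and group values are the mean ± SD of 4 libraries. They compare libraries for 1 gene, not genes with each other. For Th17 identity 12 marker genes, all present, were summed. The sum was 2540 to 2920 CPM in WT untreated, 1980 to 2380 in KO untreated, 2800 to 3590 in WT acetate and 2950 to 4200 in KO acetate libraries. The markers did not move together, so the sum does not show that identity was alike in the groups. In the same order Il17a averaged 135, 137, 485 and 868 CPM, Il23r 27.3, 7.82, 28.8 and 24.4, and Cd3e 153, 156, 129 and 116. At an adjusted p under 0.05, KO against WT untreated had 1 of the 12 higher and 5 lower (18.0% and 18.6% of all genes tested). KO acetate against WT untreated had 4 higher and 6 lower (12.9% and 13.5% of all genes tested). Pdha1, a subunit gene of PDH, averaged 247 ± 12.6 CPM in WT and 225 ± 11.5 CPM in KO untreated libraries (log2 −0.14, adjusted p = 0.0761). Since the floxed gene and exons are not stated, this level does not check the genotype. Markers of other cells were low. The 5 of 6 CD8 and cytotoxic markers in the table summed to 15.6 to 19.7, 11.3 to 15.8, 26.8 to 30.6 and 23.3 to 31.7 CPM in the same order of groups. B cell markers (6 of 6) reached at most 6.95 CPM, myeloid markers (4 of 7) 4.18 and NK markers (1 of 4) 2.95, and the 6 red cell and platelet markers were not in the table. A single gene that is not a member took more than 3% of all counts in 4 libraries, up to 9.137%. They were WT untreated 1, KO untreated 1 and 2, and KO acetate 2, called high-share libraries below. In bulk RNA, fewer cells of a type and less RNA per cell cannot be told apart. The part of any of these in the results below was not tested, except where a value without the 4 high-share libraries is given.

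Without acetate, Myc and a subset of the assembly genes were higher in KO than in WT cells. Myc read 353, 429, 440 and 385 CPM in the 4 WT untreated libraries and 535, 557, 633 and 673 CPM in the 4 KO untreated libraries. Every KO library was above every WT library. The means were 402 ± 40.4 and 599 ± 64.8 CPM, a 1.49-fold rise (log2 0.58, SE 0.0839, adjusted p = 4.03e-05). Each adjusted p comes from edgeR's quasi-likelihood test with Benjamini-Hochberg adjustment over all genes tested unless DESeq2 is named, and "rose", "fell" and "called" mean an adjusted p under 0.05. Of the 37 members, 10 rose and 1 fell, which is 29.7%. Over all genes tested the share called was 36.6%, with 18.0% higher and 18.6% lower, so the members were called no more often than genes in general. The 10 upward calls made 27% of the members, beside the 18.0% of all genes. The members' median log2 difference was 0.05, against 0.01 for all genes, and their values ran from −0.36 to 0.58. The 2 groups did not overlap for 10 members, while 36.0% of all genes had groups that did not overlap. The scaling bears on these counts. With library totals in place of TMM, 5 members were higher and 2 lower, and all genes divided into 1914 higher and 3217 lower. The 5 higher under both scalings were Myc, Npm1, Ncl, Nop56 and Dkc1.

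**Figure D1:**
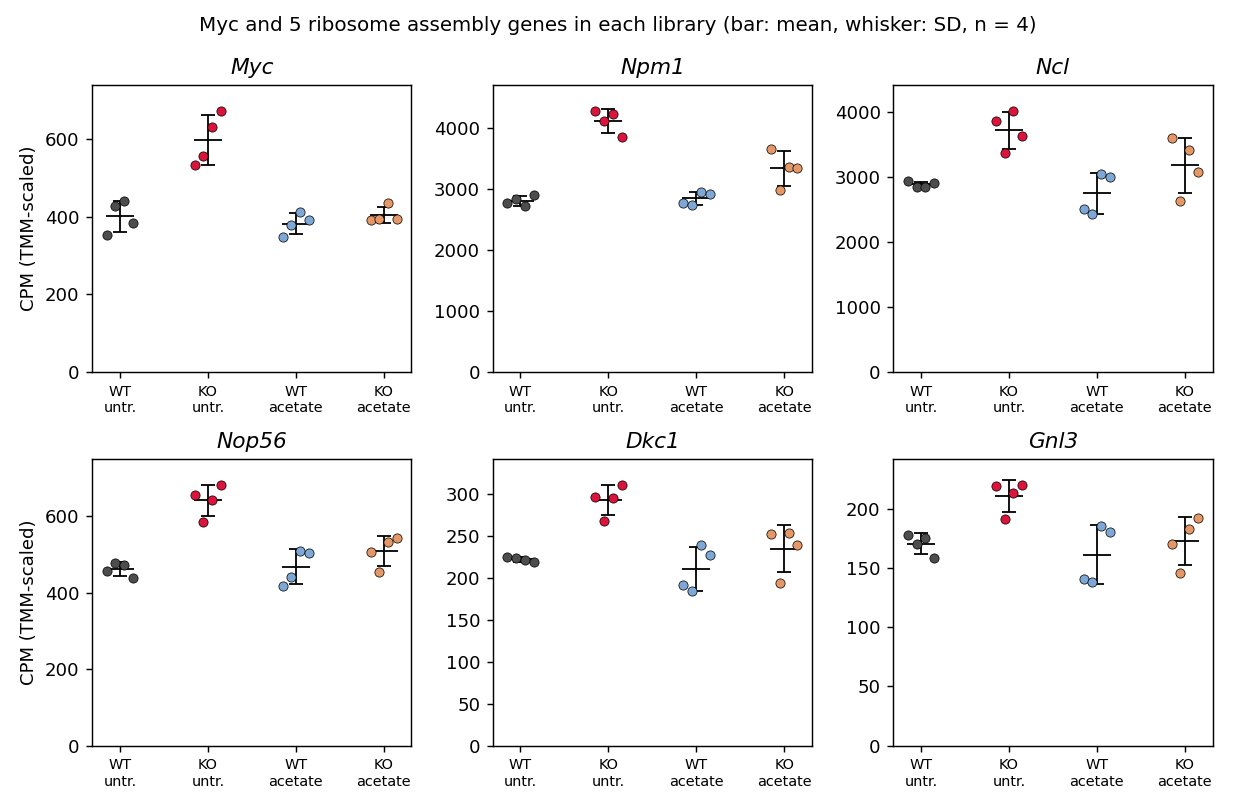
Myc, Npm1, Ncl, Nop56, Dkc1 and Gnl3 in each of the 16 libraries, in TMM-scaled CPM on a linear axis from 0; points are libraries, the bar is the mean and the whisker the SD (n = 4). For Myc the 4 KO untreated points lie at 535 to 673 CPM and the other 12 at 348 to 440 CPM.

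Among the nucleolar organisers, Npm1 and Ncl showed the same separation. Npm1, which encodes nucleophosmin, a chaperone of the granular part of the nucleolus, read 2760, 2830, 2720 and 2900 CPM in WT and 4270, 4100, 4220 and 3840 CPM in KO untreated libraries. It rose 1.47-fold (log2 0.55, SE 0.0684, adjusted p = 8.02e-06), and every KO library lay above every WT library. Npm1 has near-identical copies in the genome with which its reads may be shared, so its level is uncertain. Ncl, which encodes nucleolin, the RNA-binding protein of the dense nucleolar region, averaged 2880 ± 42.3 and 3720 ± 283 CPM (log2 0.37, adjusted p = 0.00568). Mybbp1a, a nucleolar Myb-binding protein, averaged 548 ± 45 and 657 ± 56 CPM (log2 0.26, adjusted p = 0.0151). Its call was lost without WT untreated 4 (0.2, adjusted p = 0.0644) or KO untreated 4 (0.21, adjusted p = 0.0557). The other two of this group were not called. Ddx21, a nucleolar RNA helicase, was at log2 −0.06, and Nolc1, a chaperone of small nucleolar particles, at −0.25 (adjusted p = 0.0928). With library totals Nolc1 was called lower (−0.31, adjusted p = 0.0406).

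Of the RNA polymerase I core subunits, Polr1a, the largest, read 116, 118, 114 and 105 CPM in WT and 128, 119, 136 and 134 CPM in KO untreated libraries. The groups did not overlap, but the lowest KO library lay just above the highest WT library. The rise was 1.14-fold (log2 0.19, SE 0.0738, adjusted p = 0.0468). It was not called when any of 11 of the 16 libraries was left out, namely all but KO untreated 2, WT acetate 1 to 3 and KO acetate 2, with values from 0.16 to 0.23 over the 16 fits. The second largest subunit, Polr1b, was at −0.05 and was not called.

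The small nucleolar particles were divided within themselves. In the box C/D group Nop56, a core protein of the methylation particles, read 458, 478, 472 and 439 CPM in WT and 655, 586, 643 and 682 CPM in KO untreated libraries, with no overlap. It rose 1.39-fold (log2 0.48, SE 0.0754, adjusted p = 9.3e-05). Its 3 partners were not called: Nop58 was at log2 0.16, the methyltransferase Fbl at 0.03 and the U3 protein Rrp9 at 0.04. In the box H/ACA group Dkc1, the pseudouridine synthase dyskerin, read 225, 224, 221 and 219 CPM in WT and 297, 268, 295 and 311 CPM in KO untreated libraries. This 1.32-fold rise (log2 0.4, SE 0.0879, adjusted p = 0.00176) also came with no overlap. Nop10, the smallest partner of Dkc1, went the other way, from 101 ± 6.86 to 79 ± 12.8 CPM (log2 −0.36, SE 0.122, adjusted p = 0.0305). The Nop10 groups overlapped, since KO untreated 4 read 97.5 CPM and WT untreated 1 read 93.5 CPM. Leaving out any of WT untreated 2 to 4 or KO untreated 1 to 3 ended the call, with values from −0.47 to −0.29 over the 16 fits. Gar1 and Nhp2, the other proteins of this particle, were at 0.05 and 0.1 and were not called.

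In the small subunit group only Wdr43 of 10 members was called, and in the large subunit group Gnl3 and Noc2l of 11. Wdr43, a component of the complex that binds the nascent precursor RNA, read 241, 230, 233 and 233 CPM in WT and 299, 269, 288 and 285 CPM in KO untreated libraries (log2 0.28, SE 0.0738, adjusted p = 0.00575). The lowest KO library was above the highest WT library. Noc2l, a nucleolar protein of large subunit maturation, read 316, 308, 315 and 288 CPM in WT and 362, 340, 355 and 403 CPM in KO (log2 0.25, SE 0.0621, adjusted p = 0.00405). Gnl3, which encodes nucleostemin, a GTP-binding nucleolar protein, averaged 170 ± 8.73 and 211 ± 13.4 CPM (log2 0.31, adjusted p = 0.0168), and was not called without WT untreated 4 (0.27, adjusted p = 0.0562). All 3 of these calls were lost with library totals, where the adjusted p was 0.0536, 0.0526 and 0.0627 for Wdr43, Noc2l and Gnl3. The Pes1, Bop1 and Wdr12 genes, whose proteins form 1 complex in large subunit processing, were at log2 0.01, −0.1 and −0.06 and were not called. Heatr1, Utp15, Nop14 and Utp20 of the small subunit processome were at −0.09, 0.02, 0.05 and 0.05, also not called. WT untreated 4 was the lowest of its group for 29 of the 37 members and for 27.8% of all genes. When it was left out, 7 members were higher and 0 lower (15.2% and 16.6% of all genes). Without the 4 high-share libraries 9 were higher and 0 lower (10.3% and 11.6% of all genes).

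**Figure D2:**
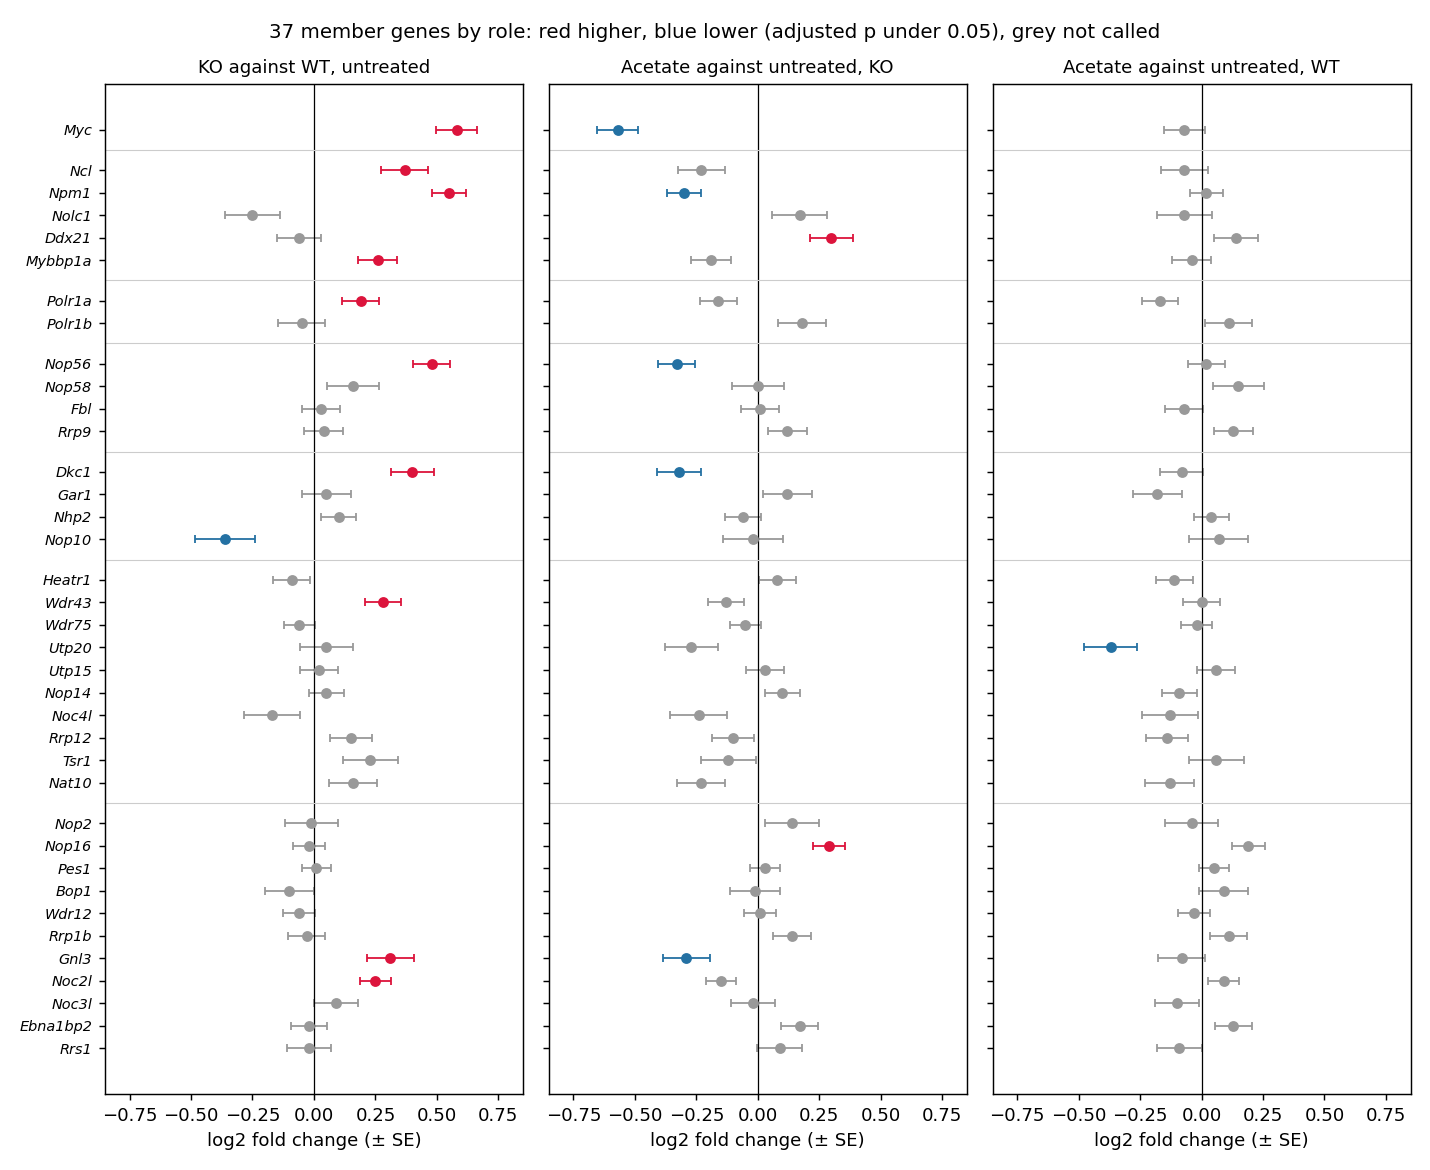
Log2 fold change of each of the 37 members, ordered by role from Myc at the top to large subunit assembly at the bottom, with its SE, for KO against WT untreated (left), acetate against untreated in KO (middle) and acetate against untreated in WT (right); red is called higher, blue called lower, grey not called. The counts higher and lower are 10 and 1 on the left, 2 and 5 in the middle (7 and 2 with library totals) and 0 and 1 on the right (1 and 0 with library totals).

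In KO cells acetate lowered Myc and some of the assembly genes and raised others. This comparison uses the same KO untreated libraries as the one above, so a high level in them raises the first difference and lowers the second. Myc fell from 535, 557, 633 and 673 CPM to 393, 395, 436 and 394 CPM, with every acetate library below every untreated library. The change was log2 −0.57 (SE 0.0839, adjusted p = 2.5e-05), or 1.48-fold lower. Of the 37 members 2 rose and 5 fell, which is 18.9%, where 43.7% of all genes were called (22.1% higher, 21.6% lower). The members' median was −0.02 and that of all genes −0.01. For 7 members the groups did not overlap, against 37.7% of all genes. The direction of the counts depended on the scaling: library totals moved the median of all genes from −0.01 to 0.09 and that of the members from −0.02 to 0.09, and gave 7 members higher and 2 lower. All genes then divided into 4229 higher and 2085 lower. Myc (−0.47, adjusted p = 0.000869) and Nop56 (−0.22, adjusted p = 0.0464) were lower, and Ddx21 (0.42) and Nop16 (0.39) higher, under both scalings.

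Npm1 went from 4270, 4100, 4220 and 3840 CPM to 3650, 2970, 3360 and 3340 CPM in KO cells, with no overlap (log2 −0.3, SE 0.0683, adjusted p = 0.00138). With library totals it was at −0.19 (adjusted p = 0.0855) and not called. Ddx21 rose, from 654, 526, 626 and 627 CPM to 809, 655, 798 and 743 CPM (log2 0.3, SE 0.0884, adjusted p = 0.00904). Its lowest acetate library was just above its highest untreated library. Ncl averaged 3720 ± 283 and 3180 ± 426 CPM and was not called (log2 −0.23, adjusted p = 0.0625). Neither RNA polymerase I subunit was called, while with library totals Polr1b was called higher (0.29, adjusted p = 0.0218).

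Nop56 fell from 655, 586, 643 and 682 CPM to 506, 455, 532 and 544 CPM (log2 −0.33, SE 0.0753, adjusted p = 0.00144), and Dkc1 from 297, 268, 295 and 311 CPM to 252, 194, 254 and 239 CPM (log2 −0.32, SE 0.0879, adjusted p = 0.00639). Neither gene's groups overlapped. The Dkc1 call was lost with library totals (−0.21, adjusted p = 0.104). In the small subunit group nothing was called. The smallest adjusted p there was that of Utp20, a long scaffold protein of the processome (log2 −0.27, adjusted p = 0.0512), which went from 145, 118, 132 and 145 CPM to 111, 98.2, 122 and 116 CPM with overlap. In the large subunit group the calls went both ways. Nop16, an assembly factor of the large subunit, rose from 73.6, 68.3, 71.5 and 75.5 CPM to 90.2, 86, 88.9 and 87.1 CPM (log2 0.29, SE 0.0668, adjusted p = 0.00185), with a clear gap between the groups. Gnl3 fell from 211 ± 13.4 to 173 ± 20 CPM (log2 −0.29, adjusted p = 0.0207) with overlap, and was not called without KO untreated 1, KO untreated 4 or KO acetate 2, with values from −0.34 to −0.22 over the 16 fits. KO untreated 2 was the lowest of its group for 32 of the 37 members and for 29.2% of all genes. When it was left out, 13 members were called, 2 higher and 11 lower (19.9% and 20.4% of all genes). Without the high-share libraries 3 were higher and 4 lower (16.3% and 17.2% of all genes).

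In WT cells the change of Myc with acetate was within the spread between libraries, and a single member was called. Myc read 348, 378, 413 and 392 CPM with acetate, all within the range of the WT untreated libraries except the lowest. The difference was log2 −0.07 with a 95% interval of −0.25 to 0.1 (adjusted p = 0.638). Of the 37 members 0 rose and 1 fell, 2.7%, where 15.4% of all genes were called (7.89% higher, 7.55% lower). The unadjusted p was under 0.05 for 3 members and for 28.4% of all genes, and DESeq2 called 1 member and 17.6% of all genes. The gene that fell was Utp20, from 145, 127, 132 and 115 CPM to 87.9, 83.3, 114 and 116 CPM (log2 −0.37, SE 0.108, adjusted p = 0.0267). The groups overlapped. The call was lost without WT untreated 1, 2 or 3 or WT acetate 1 or 2, with values from −0.45 to −0.29 over the 16 fits, and also without the high-share libraries (−0.32, adjusted p = 0.0743). With library totals Utp20 was not called and Nop16 was called higher (0.23, adjusted p = 0.0446). No member had groups that did not overlap, where 21.3% of all genes did.

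Whether acetate acted differently in the 2 genotypes was tested as the interaction, in which the effect of acetate in WT is subtracted from its effect in KO cells. It was negative and called for Myc (log2 −0.5, SE 0.118, 95% interval −0.75 to −0.25, adjusted p = 0.0105), Npm1 (−0.33, adjusted p = 0.034) and Nop56 (−0.35, adjusted p = 0.0384). No member had a positive call, so 8.11% of the members were called against 11.9% of all genes (6.37% higher, 5.54% lower). The Myc interaction held in all 16 fits without 1 library, between −0.56 and −0.45. With library totals it was −0.44 and no longer called (adjusted p = 0.0586). The Npm1 and Nop56 calls were less steady. Npm1 kept its call without WT untreated 4, KO untreated 2 or 4, WT acetate 1 or 2, or KO acetate 1 or 4, and lost it without any of the other 9 libraries (−0.37 to −0.28 over the 16 fits). Nop56 kept it without KO untreated 2, WT acetate 1 or 2 or KO acetate 4, and lost it without any of the other 12 (−0.4 to −0.31). Without the high-share libraries Npm1 was at −0.24 (adjusted p = 0.196) and Nop56 at −0.34 (adjusted p = 0.104).

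With acetate present in both genotypes, no member was called between KO and WT cells. Over all genes 1.00% were called, 0.487% higher and 0.514% lower. By the unadjusted p 9 of 37 members were under 0.05, as were 18.4% of all genes. DESeq2 called 4 of 37, where it called 5.61% of all genes with an adjusted p: Npm1, Gar1 and Nop14 higher and Nop10 lower. These were named after their values were seen. Myc was at 404 ± 21.2 CPM in KO acetate and 383 ± 27.3 CPM in WT acetate libraries, a difference of log2 0.08 with a 95% interval of −0.1 to 0.26. The smallest adjusted p of the members was that of Nop10 (0.0779), which read 92.7, 106, 115 and 112 CPM in WT acetate and 64.4, 90.5, 67.3 and 90.6 CPM in KO acetate libraries, with no overlap. Npm1 also had no overlap, with 2770, 2740, 2950 and 2920 CPM in WT acetate and 3650, 2970, 3360 and 3340 CPM in KO acetate libraries. Such separation occurred for 9.36% of all genes. Library KO acetate 2, one of the high-share libraries, weighed on this comparison. Without it edgeR called 4.32% of all genes and 4 of the 37 members, Npm1 (0.27, adjusted p = 0.0318), Gar1 (0.44, adjusted p = 0.0138), Nop14 (0.29, adjusted p = 0.0298) and Nop10 (−0.53, adjusted p = 0.036). Without KO untreated 4 or without KO acetate 4, Nop10 alone was called, as lower, where 1.49% and 2.43% of all genes were called.

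KO acetate cells were also set against WT untreated cells, a parallel culture of the same 3 days. This asks how near the KO level with acetate lay to the WT level without it. Genotype and treatment both differ in this comparison. For Myc the 4 KO acetate libraries, 393 to 436 CPM, lay within the WT untreated range of 353 to 440 CPM. The difference was log2 0.01 with a 95% interval of −0.17 to 0.19, which is less than the spread between libraries. Of the 37 members 3 were higher and 2 lower, 13.5%, against 26.4% of all genes (12.9% higher, 13.5% lower). For 4 members the groups did not overlap, against 28.4% of all genes. Npm1 was higher, at 3330 ± 279 against 2800 ± 80.9 CPM (log2 0.25, adjusted p = 0.0122). Nop16 was higher, at 88.1 ± 1.89 against 73.4 ± 3.06 CPM (log2 0.26, adjusted p = 0.00748). Ddx21 was called higher (0.24, adjusted p = 0.0489) with overlapping groups, and the call was lost without any of 12 libraries, all but KO untreated 2, WT acetate 2 and 3 and KO acetate 2, with values from 0.2 to 0.3. Noc4l, a partner of Nop14 in the small subunit processome, read 147, 141, 139 and 127 CPM in WT untreated and 89.1, 101, 106 and 119 CPM in KO acetate libraries. It was lower with no overlap (log2 −0.42, SE 0.115, adjusted p = 0.0133), and not called without the high-share libraries (−0.38, adjusted p = 0.0605). Nop10 was lower as well (−0.37, adjusted p = 0.0329), and lost its call without WT untreated 2, 3 or 4 or KO acetate 1 or 3 (−0.45 to −0.29 over the 16 fits). Without KO acetate 2, 6 members were higher and 2 lower (11.4% and 13.4% of all genes). Without WT untreated 2, 3 or 4 or KO acetate 1 or 3, 2 members were higher and 1 lower, where 19.3% to 23.5% of all genes were called.

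**Figure D3:**
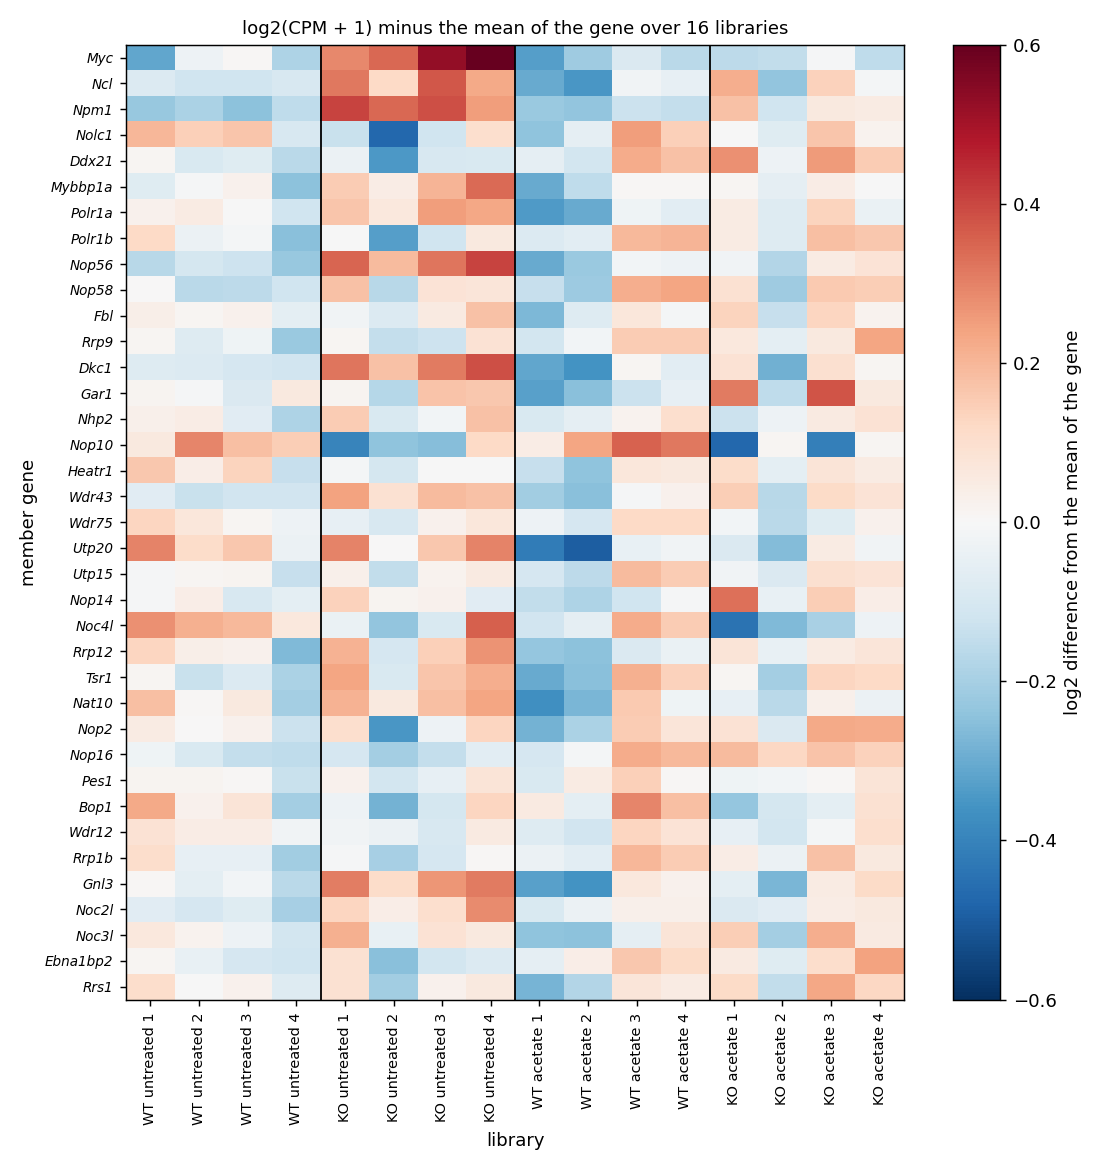
Each member's log2(CPM + 1) in the 16 libraries, as the difference from that gene's mean over all libraries (colour scale from −0.6, blue, to 0.6, red); members are ordered by role and libraries by group. Myc, Npm1, Nop56 and Dkc1 are red in the KO untreated columns, and 36 of 37 members are redder in WT acetate 3 and 4 than in WT acetate 1 and 2.

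Libraries of the same group also differed in the members. In WT acetate, 36 of 37 members were higher in both of libraries 3 and 4 than in both of libraries 1 and 2. Over all genes tested 26.6% had this order and 31.1% the opposite one. The same held for 19 members in KO acetate, 8 in KO untreated and 0 in WT untreated, where 12 members had the opposite order. Over all genes the shares with the first order were 15.8%, 14.1% and 16.4% in these 3 groups, and 17% had the opposite order in WT untreated. The summed level of the 37 members was 11217 and 11284 CPM in WT acetate 1 and 2 and 13255 and 13001 CPM in WT acetate 3 and 4. In KO acetate it was 14229, 11878, 14050 and 13525 CPM. KO acetate 2 was the lowest of its group for 30 of 37 members and for 25.8% of all genes. In KO untreated the summed level was 15529, 14012, 15568 and 15306 CPM, and in WT untreated 12518, 12367, 12283 and 11952 CPM. All 4 KO untreated sums lay above all 4 WT untreated sums, but Ncl and Npm1 have the most counts and weigh most in them. The mean log2(CPM + 1) of the members without Myc, which weights genes equally, overlapped: it was 7.517, 7.463, 7.458 and 7.348 in WT untreated and 7.571, 7.382, 7.531 and 7.619 in KO untreated libraries. Because the labels give no batch, what divides the libraries of a group was not tested. When libraries 1 and 2 were set apart from 3 and 4 by a term in the fit, added after this division was seen, Myc rose by log2 0.57 in KO untreated cells (adjusted p = 8.47e-06).

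The list of partners and antagonists of Myc holds Max, proteins that dimerise with it, and other proteins that act in the same network. None of its genes rose in KO against WT untreated. Of the 16 tested 0 were higher and 6 lower, with a median log2 of −0.07, where 18.0% of all genes were higher and 18.6% lower. The count was also 0 and 6 with library totals (12.8% and 21.5% of all genes). Without the high-share libraries it was 0 and 3 (10.3% and 11.6% of all genes). Max itself fell from 91.7 ± 5.04 to 71.2 ± 9.3 CPM (log2 −0.37, adjusted p = 0.00399). Mxd1, an antagonist that dimerises with Max, fell from 54 ± 4.76 to 38 ± 4.41 CPM (log2 −0.51, adjusted p = 0.00239), and Mlx, a Max-like partner of related factors, from 52.8 ± 1.8 to 42.3 ± 3.03 CPM (log2 −0.32, adjusted p = 0.000701). With acetate in KO cells 6 of the list rose and 3 fell (22.1% and 21.6% of all genes). Among these, the antagonist Mxi1 went from 20.9 ± 2.71 to 30.3 ± 3.82 CPM (log2 0.54, adjusted p = 0.00212), and Mxd4, another antagonist, from 19.4 ± 1.46 to 12.9 ± 1.97 CPM (log2 −0.59, adjusted p = 0.000369). Mxd4 also fell with acetate in WT cells (−0.54, adjusted p = 0.00323). Mycn, a close relative of Myc, was at a low level, 0.504 ± 0.287 CPM in WT untreated, 0.18 ± 0.0341 in KO untreated, 0.676 ± 0.311 in WT acetate and 0.788 ± 0.281 in KO acetate libraries. It was lower in KO against WT untreated with overlapping groups (log2 −1.48, adjusted p = 0.031) and rose with acetate in KO cells with no overlap (2.1, adjusted p = 0.00237). The 40 Myc targets outside ribosome assembly had 4 higher and 7 lower in KO against WT untreated. They include Rcc1, the exchange factor of Ran, which was higher (0.4, adjusted p = 0.000671), and the purine synthesis gene Paics and the chaperone gene Fkbp4, which were lower (−0.4, adjusted p = 1.86e-05, and −0.46, adjusted p = 2.77e-05).

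Assembly genes outside the member list moved in both directions in KO against WT untreated. Of 47 other small subunit genes 6 rose and 5 fell, of 50 other large subunit genes 6 rose and 7 fell, and of 13 other RNA polymerase I subunits and factors 2 rose and 2 fell. With library totals these became 1 and 9, 1 and 10, and 2 and 5. All genes gave 18.0% higher and 18.6% lower (12.8% and 21.5% with library totals). With acetate in KO cells the counts of these lists were 12 and 4, 7 and 6, and 3 and 1, and with library totals 18 and 0, 18 and 2, and 5 and 1. All genes then gave 22.1% higher and 21.6% lower (28.2% and 13.9% with library totals). Taf1d, a subunit of the promoter factor that recruits RNA polymerase I, rose in KO untreated cells from 135 ± 9.18 to 194 ± 19.5 CPM (log2 0.52, adjusted p = 5.97e-05). Polr1c, a subunit shared by RNA polymerases I and III, was at 80.1 ± 4.15 CPM in KO cells without acetate and rose to 114 ± 5.57 CPM with it (log2 0.51, adjusted p = 6.78e-07). In WT cells it rose from 90.4 ± 4.46 to 114 ± 3.76 CPM (log2 0.34, adjusted p = 0.000492). Utp14a, a small subunit processome protein, fell in KO untreated cells (−0.24, adjusted p = 0.000976) and rose with acetate in KO cells (0.5, adjusted p = 3.11e-07). The 22 RNA polymerase III and 5S genes had 6 higher and 6 lower in KO against WT untreated.

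Pih1d1, a subunit of the chaperone complex that assembles box C/D particles, read 28.9, 30, 28.9 and 27.6 CPM in WT untreated, 47.9, 57.7, 54 and 53.8 in KO untreated, 21.6, 20.3, 20.3 and 20.6 in WT acetate and 18.8, 21.7, 18.4 and 22.4 in KO acetate libraries. KO untreated stood above all other groups, and both acetate groups stood below both untreated groups. Pih1d1 rose in KO against WT untreated (log2 0.89, adjusted p = 9.56e-08) and fell with acetate in KO (−1.39, adjusted p = 1.9e-10) and in WT cells (−0.48, adjusted p = 0.00023), and the interaction was called (−0.91, adjusted p = 2.34e-05). The rest of its list of 21 snoRNP assembly and exosome genes was mixed, with 5 higher and 3 lower in all in KO against WT untreated.

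With TMM scaling, the ribosomal protein genes had the largest share called in 1 direction among the lists of other pathway genes. This held with acetate in KO cells and in the interaction. In KO against WT untreated the list of Myc partners and antagonists had a larger share, 37.5% lower against 30.9% higher. With library totals the other small and large subunit lists had larger shares with acetate in KO cells, called higher. Of the 81 ribosomal protein genes tested, 25 rose and 0 fell in KO against WT untreated (10 and 1 with library totals). Their median log2 was 0.18. Of all genes 18.0% rose and 18.6% fell (12.8% and 21.5% with library totals). Without the high-share libraries 3 rose and 0 fell (10.3% and 11.6% of all genes). With acetate in KO cells 1 rose and 48 fell (1 and 26 with library totals, 1 and 36 without the high-share libraries), with a median of −0.27. All genes gave 22.1% higher and 21.6% lower (28.2% and 13.9% with library totals, 16.3% and 17.2% without the high-share libraries). In WT cells acetate gave 1 higher and 0 lower (7.89% and 7.55% of all genes), with a median of 0.05. The interaction was called lower for 24 and higher for 0 (10 and 0 with library totals, 11 and 0 without the high-share libraries, 41 and 0 with DESeq2, 47 and 0 with a replicate block), beside 5.54% of all genes lower. With acetate in both genotypes 1 was higher and 1 lower in KO against WT cells (0.487% and 0.514% of all genes). There 71 of the 81 differences were negative, with a median of −0.18. Over all genes tested 7265 of 14985 were negative, with a median of 0.01. KO acetate against WT untreated gave 2 higher and 14 lower (12.9% and 13.5% of all genes), with a median of −0.09. Rplp0, a protein of the ribosomal stalk, read 3190, 3600, 3400 and 3290 CPM in WT untreated, 4700, 5120, 4610 and 5000 in KO untreated, 3150, 3400, 3360 and 3180 in WT acetate and 2780, 3230, 2850 and 3310 in KO acetate libraries. Only the KO untreated libraries stood apart. The changes were log2 0.53 in KO against WT untreated (adjusted p = 2.16e-05) and −0.68 with acetate in KO cells (adjusted p = 5.9e-07), with an interaction of −0.63 (adjusted p = 0.000663). Rpl5, which joins the ribosome as part of the 5S particle, rose with acetate in KO (0.53, adjusted p = 0.000128) and in WT cells (0.5, adjusted p = 0.00115). Ribosomal protein genes share reads with many near-identical copies, so single values are uncertain.

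**Figure D4:**
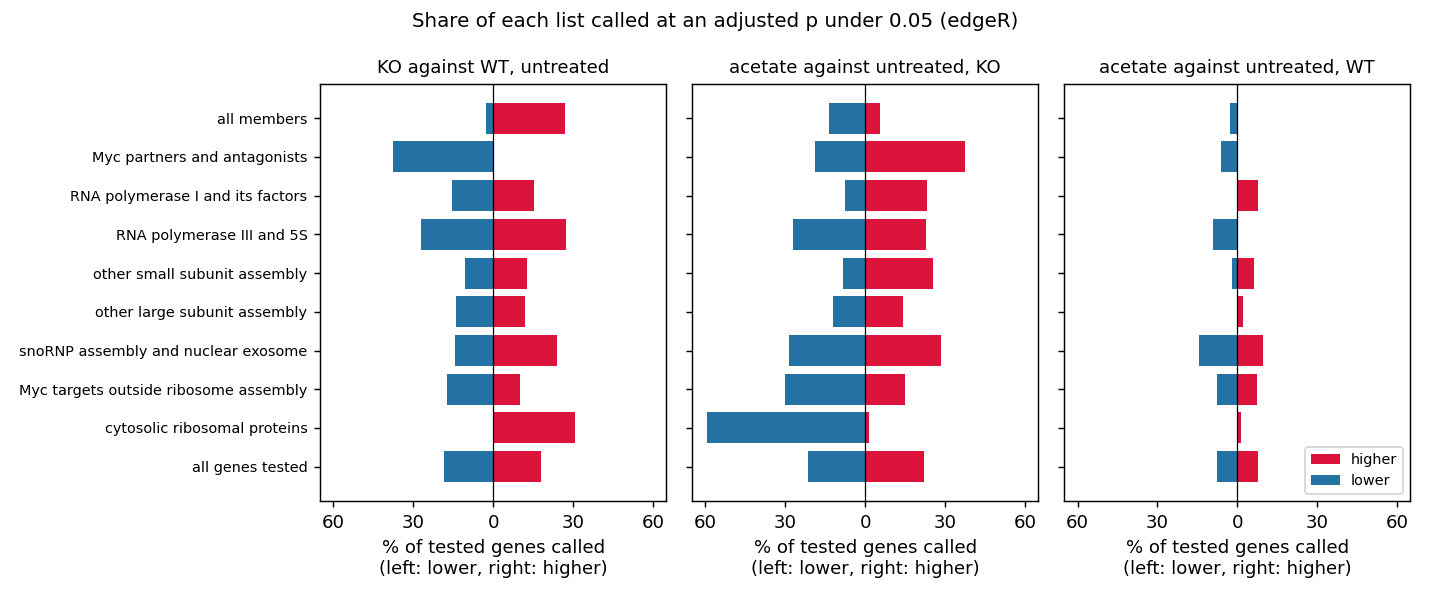
Percent of each list's tested genes called higher (red, right of 0) and lower (blue, left of 0) in 3 comparisons, for the 37 members, 8 lists of other pathway genes and all genes tested. Ribosomal protein genes are at 25 higher and 0 lower of 81 on the left and 1 and 48 in the middle (10 and 1, and 1 and 26, with library totals), and no list reaches such counts in WT cells on the right.

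Myc with Max binds the letters CACGTG, known as the E-box. It was searched for in promoter windows from 250 bases before to 50 bases after each gene's start (RefSeq, GRCm38.p6, matched by symbol). These letters read the same on both strands. Of the members 31 were matched. Myc, Npm1, Fbl, Rrp12, Bop1 and Rrs1 had no entry. The E-box was in the window of 6 of 31 members (19.4%), of 1204 of 10386 tested genes (11.6%) and of 2187 of 27025 genes in the table (8.1%). The stretches of 30 bases around it are shown for these 6, so that the letters can be read beside each gene's values, with the E-box in capitals. They lie at chr11:72441347-72441376 (+) for Mybbp1a, chr17:71616220-71616249 (+) for Wdr43, chr10:88826765-88826794 (−) for Utp20, chr11:74898092-74898121 (+) for Tsr1, chr6:125131811-125131840 (+) for Nop2 and chr11:3963965-3963994 (+) for Pes1.
Mybbp1a: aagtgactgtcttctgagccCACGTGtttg
Wdr43: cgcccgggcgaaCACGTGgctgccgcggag
Utp20: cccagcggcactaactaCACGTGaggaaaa
Tsr1: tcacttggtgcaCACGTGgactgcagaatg
Nop2: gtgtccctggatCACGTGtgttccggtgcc
Pes1: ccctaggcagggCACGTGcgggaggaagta

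Of these 6 genes Mybbp1a and Wdr43 rose in KO untreated cells and the others were not called there. Both calls were lost with library totals. Of the members higher under both scalings, Ncl, Nop56 and Dkc1 had a window, and none of their windows held the E-box. Among members that rose, 2 of 8 with a window held the E-box (25.0%), and among those not called 4 of 22 (18.2%). Over all tested genes the shares were 11.7% of those higher, 11.6% of those lower and 11.5% of those not called. The E-box was in 14 of 36 promoters of the other Myc targets (38.9%), in 11 of 38 of the other small subunit genes (28.9%) and in 6 of 60 of the ribosomal protein genes (10.0%). CACGCG, a related sequence counted on either strand, was in 9 of 31 members (29.0%) and in 19.6% of tested genes. The 2 motifs cannot share letters.

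The 3 members that rose with the smallest adjusted p among those with a promoter entry, Nop56, Dkc1 and Noc2l, are shown by the 250 bases before their start, to let their base composition be compared. The windows are chr2:130274162-130274411 (+), chrX:75095604-75095853 (+) and chr4:156235765-156236014 (+), the last for the first of the start sites listed for Noc2l. No letters are in capitals, since neither CACGTG nor CACGCG was found in them. G and C made up 65.2%, 52.0% and 67.6% of them.
Nop56: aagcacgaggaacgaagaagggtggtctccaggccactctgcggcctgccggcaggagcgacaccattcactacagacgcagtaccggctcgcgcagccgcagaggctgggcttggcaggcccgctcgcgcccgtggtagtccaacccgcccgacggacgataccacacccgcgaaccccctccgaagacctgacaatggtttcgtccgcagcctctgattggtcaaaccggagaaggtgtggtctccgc
Dkc1: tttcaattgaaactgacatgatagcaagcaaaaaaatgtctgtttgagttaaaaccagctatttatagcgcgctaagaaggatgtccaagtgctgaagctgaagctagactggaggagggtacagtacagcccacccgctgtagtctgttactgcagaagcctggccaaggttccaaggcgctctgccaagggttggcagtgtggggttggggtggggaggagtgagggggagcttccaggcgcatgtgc
Noc2l: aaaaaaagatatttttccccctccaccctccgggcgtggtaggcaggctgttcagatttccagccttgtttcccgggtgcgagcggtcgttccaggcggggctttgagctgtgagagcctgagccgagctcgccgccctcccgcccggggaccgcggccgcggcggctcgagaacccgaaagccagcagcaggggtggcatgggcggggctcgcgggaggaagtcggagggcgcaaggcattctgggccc

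Some members carry genes for small nucleolar RNAs inside their own introns, the guides of the particles described above. In GENCODE M21 (GRCm38), matched by Ensembl identifier, 7 of the 37 members held at least 1 snoRNA gene on the same strand: Ncl with 3, Nop56 with 5, Nop58 with 4, Dkc1 with 1, Wdr43 with 3, Tsr1 with 2 and Gnl3 with 3. This division was looked at after the values were seen, so it is given as counts without a test. In KO against WT untreated 5 of these 7 rose and 0 fell, with a median log2 of 0.31, where 18.0% of all genes rose and 18.6% fell. The 5 were Ncl, Nop56, Dkc1, Wdr43 and Gnl3, while Nop58 (0.16) and Tsr1 (0.23, adjusted p = 0.112) were not called. With library totals the calls of Wdr43 and Gnl3 were lost (adjusted p = 0.0536 and 0.0627). Of the 30 members without a snoRNA gene 5 rose and 1 fell, with a median of 0.01. Over all 259 tested genes that hold a snoRNA gene 67 rose and 34 fell, with a median of 0.09. Over the 222 of them that are neither members nor ribosomal protein genes, 52 rose and 34 fell, with a median of 0.04. With acetate in KO cells 0 of the 7 rose and 3 fell (median −0.23), where 22.1% of all genes rose and 21.6% fell. Of all 259 genes that hold a snoRNA gene 41 rose and 71 fell (median −0.11). Of the 222 that are neither members nor ribosomal protein genes 40 rose and 50 fell (median −0.08). Of the 30 ribosomal protein genes with a snoRNA gene 1 rose and 18 fell (median −0.23). Of the 51 ribosomal protein genes without a snoRNA gene 0 rose and 30 fell (median −0.29).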

How the data were processed

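The authors deposited 1 table for 16 libraries that holds estimated counts of genes in whole numbers. Per the submitters' processing notes, the tools included Salmon, DESeq and DESeq2, with no version. Genome build, annotation and how the estimates were rounded: not given in the sources used here. Every gene in the table had at least 10 counts in at least 3 libraries. All 16 libraries were mapped to their groups by their titles. Genes were named from a reference table (15221 of 15571 identifiers matched). The identifiers are of a newer annotation than the genome given, so no gene coordinates are printed. GENCODE M21 coordinates served only to find snoRNA genes inside other genes, and promoter coordinates are RefSeq's.

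The counts were fitted with edgeR 4.0.16 (R 4.3.3, limma 3.58.1): TMM scaling, filterByExpr on the groups, the robust quasi-likelihood F test, 1 fit over 16 libraries and no replicate term, with Benjamini-Hochberg adjustment over 14985 genes and a threshold of 0.05. The common biological coefficient of variation was 0.144. Intervals are 95% and from the same fit. The scripts were tested on simulated data. No library duplicated another of its group, since all 24 pairs within groups differed beyond sampling noise (chi-square per degree of freedom 6.18 to 213.6).

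The member rule uses no measured value, but members, lists, tests and alternatives were chosen with earlier results of these data known. All members could be named. Library values were given for Myc and the member of each role with the smallest adjusted p, and up to 3 genes of each pathway list with the smallest adjusted p among those called were named. Alternatives were DESeq2 1.42.0, library totals, no filter, a replicate block, leaving out each library or the 4 high-share libraries and, added after seeing the data, a term for replicates 1 and 2 against 3 and 4. The gene that takes the high share is not reported here.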

Additional observations from a re-analysis of the deposited data

Results flagged for a closer look

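In 5 of 148 sets of a member and a group, 1 library lay further from the others than Dixon's 95% critical value for 4 values allows, where chance gives about 5% of sets. Myc in KO acetate 3 read 436 CPM, above the other three at 393 to 395 CPM. Heatr1, a small subunit factor, read 146 CPM in KO untreated 2, where the others read 156 to 157 CPM. Utp15, of the same step, read 88.3 CPM in WT untreated 4, below the others at 96.7 to 98.4 CPM. In KO untreated 2 it read 87.7 CPM, below the others at 98.8 to 101 CPM. Pes1, of the large subunit, read 162 CPM in WT untreated 4, and its others 179 to 180 CPM.

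The acetate effect differed between KO and WT cells, by the interaction in edgeR, for Myc (log2 −0.5, adjusted p = 0.0105), Npm1 (−0.33, adjusted p = 0.034) and Nop56 (−0.35, adjusted p = 0.0384). Over all genes 11.9% were called in the interaction. Acetate lowered each of the 3 in KO cells and was not called for any of them in WT cells. With library totals none of the 3 interactions was called, nor was the fall of Npm1 in KO cells (adjusted p = 0.0855). The Npm1 and Nop56 interactions also lost their calls in 9 and 12 of the 16 fits without 1 library.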

How the results depend on the processing

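No called value of a single member changed sign under the alternatives run, but the calls for acetate in KO cells, 2 higher and 5 lower, became 7 and 2 with library totals, and the 1 call for acetate in WT cells was then Nop16, upward, in place of Utp20. In the counts of members that follow, each percentage in brackets is the share of all genes called in the same fits. In KO against WT untreated the members called were 11 (36.6%), but 7 with library totals (34.2%). Without 1 library they were 7 to 11 (29.4% to 36.5%), with 7 without WT untreated 4 (31.7%). With acetate in both genotypes they were 0 (1.00%), but 4 with DESeq2 (5.61%), 4 without the high-share libraries (3.48%) and 0 to 4 without 1 library (0.137% to 4.32%). Acetate in WT cells gave 1 (15.4%), and 0 without the high-share libraries (11.5%). Without 1 library it gave 0 to 1 (10.3% to 15.5%), with 0 without WT untreated 1, 2 or 3 or WT acetate 2. Acetate in KO cells gave 7 (43.7%), but 11 with DESeq2 (43.9%) and 11 with the term for replicates 1 and 2 against 3 and 4 (44.7%). Without 1 library it gave 6 to 13 (38.1% to 43.4%). KO acetate against WT untreated gave 5 (26.4%), and 3 to 8 without 1 library (19.2% to 26.9%). The interaction gave 3 (11.9%), but 0 with library totals (9.22%), 1 without the high-share libraries (6.57%) and 1 to 3 without 1 library (8.35% to 13.1%). The Myc interaction was −0.44 with library totals (adjusted p = 0.0586). The cause was not tested.

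Same-numbered libraries deviated from their group means with correlations of −0.0509 to 0.218 for number 1, 0.0408 to 0.229 for 2, −0.0593 to 0.165 for 3 and −0.084 to 0.136 for 4, so not every pair exceeded 0.1, and the numbers, which the labels do not explain, were not taken to pair the libraries. Yet 10 of 16 libraries correlated best with their own number among the other groups, a hint toward pairing from the data, not the design. With a replicate block the members called were 11 in KO against WT untreated, 2 with acetate in both genotypes (Gar1 higher, Nop10 lower), 10 for acetate in KO cells and 3 for the interaction. The block called 39.3%, 2.72%, 45.7% and 15.1% of all genes in the same comparisons. The ribosomal protein genes called higher in KO against WT untreated were 25, and 37 with the block (18.0% and 19.1% of all genes). Those called lower in the interaction were 24, but 41 with DESeq2 and 47 with the block (5.54%, 7.47% and 6.92% of all genes). Over all genes 150 were called with acetate in both genotypes, but 788 with DESeq2, 408 with the block and 661 without KO acetate 2. Depth was at least 1366 counts for each member in each library.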
